A study of Mus musculus with 11 samples.

Results

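The genes of the cadherin superfamily and of the catenins were followed across 4 mouse cell lines that model the stages from a melanocyte to a metastatic melanoma. The members were taken by symbol (*Cdh*, *Pcdh*, *Fat*, *Dchs*, *Celsr*, *Clstn* and *Ctnn* genes), and 37 of the 14272 genes with a value met this rule. They comprise 6 *Cdh* genes, 6 catenin-named genes, 6 *Pcdhb* and 7 *Pcdhg* genes of the clustered protocadherins, 4 single protocadherins, 4 *Fat* and *Dchs* genes, 2 *Celsr* genes and 2 calsyntenins. Melan-a is a nontumorigenic melanocyte line with an epithelial phenotype, cultured with 200 nM of the phorbol ester PMA. The other 3 lines were grown without PMA (0 nM) and descend from melan-a by repeated cycles of blocked anchorage: 4C is premalignant and mesenchymal-like, 4C11− is tumorigenic, nonmetastatic and mesenchymal-like, and 4C11+ is metastatic and epithelial. Total RNA depleted of ribosomal RNA was sequenced from 2 libraries of melan-a (replicates 2 and 3; replicate 1 was not analysed here) and 3 libraries of each other line. Each line is a single line and its replicates are cultures, so p-values measure the spread between cultures, and the phenotype is represented by 2 lines on each side. The absence of PMA cannot be told apart from the step out of melan-a.

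Classical cadherins are transmembrane proteins that bind the same cadherin on a neighboring cell through calcium-dependent extracellular repeats. Their cytoplasmic tails hold β-catenin and p120-catenin, and α-catenin joins this complex to actin, so that the junction is both an adhesive and a mechanical structure, while free β-catenin serves the Wnt pathway as a transcriptional coactivator. Melanocytes of the skin are held to keratinocytes mainly through E-cadherin (*Cdh1*), and a shift from E-cadherin to N-cadherin (*Cdh2*) is a textbook sign of EMT and of melanoma invasion. Protocadherins carry similar repeats but do not bind the catenins in this way, and the giant Fat, Dachsous and Celsr cadherins serve planar cell polarity.

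All values are log2 CPM as deposited, and 1 unit is a doubling. The depth read from the steps of the low values was 3.50 to 7.42 M reads, so that 1 to 3 reads are the floor of what can be seen, and the value of a gene with 0 reads lay between −3.44 and −2.44 depending on the library. The 9 melanocyte markers that were measured summed to 1965 to 13596 CPM in melan-a and 4C11+ and to 3.94 to 12.8 CPM in 4C and 4C11−, whereas 5 fibroblast or mesenchymal markers summed to 20.0 to 206 CPM in the first and to 1997 to 2653 CPM in the second. In melan-a, replicate 2 stood apart from replicate 3 with a macrophage marker sum (2 markers measured) of 82.9 against 7.22 CPM and a fibroblast marker sum of 206 against 20.0 CPM. Its melanocyte marker sum was 1965 against 9185 CPM, and the 2 melan-a cultures correlated across genes at r = 0.907. 4C replicate 1 and 4C11− replicate 1 each correlated least with the other cultures of their line (lowest r across genes 0.948 and 0.888). In bulk RNA, fewer cells of a type and less RNA per cell cannot be told apart.

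When 4C and 4C11− (mesenchymal-like) were set against melan-a and 4C11+ (epithelial), 24 of the 37 members passed the limma test at an adjusted p under 0.05, against 29.7% of all genes. Of these, 11 were higher in the mesenchymal-like lines and 13 lower, where 14.3% and 15.3% of all genes were. The libraries of the 2 phenotypes did not overlap for 13 members, against 13.9% of all genes. Over this and the other 5 comparisons, 30 members passed at least once, where 43.3% of all genes did. In the mesenchymal-like lines, *Cdh2*, *Cdh13* and *Cdh19* were lower and *Cdh5* and *Cdh24* higher. Of the single protocadherins 3 of 4 were lower and *Pcdh18* was higher, of the *Pcdhb* genes 4 of 6 were lower, and of the *Pcdhg* genes 3 of 7 were higher and *Pcdhgb2* was lower. *Dchs1*, *Fat2*, *Fat4*, *Celsr1* and *Clstn1* were higher, *Celsr2* was lower, and of the 6 catenin-named genes *Ctnnal1* alone passed, as lower. These calls compare averages of 2 lines, and not every gene called higher exceeded both epithelial lines. By line mean, *Fat2* was highest in epithelial 4C11+ (2.66, against 2.24 in 4C and 1.83 in 4C11−). *Pcdhgc3* was highest in epithelial melan-a (6.22, against 5.53 in 4C and 4.82 in 4C11−). Of the genes called higher, *Cdh24*, *Clstn1*, *Pcdh18*, *Pcdhgb7*, *Pcdhgc3* and *Pcdhgc5* did not pass from melan-a to 4C, and *Fat2* not between 4C11− and 4C11+. Of those called lower, *Celsr2*, *Pcdhb17*, *Pcdhb18* and *Pcdhb21* did not pass between 4C11− and 4C11+. The median absolute log2 difference of the members was 1.88, and over all genes it was 0.50. Per the study's methods, genes were kept at 1 CPM in at least 4 libraries, so a member that passed through one phenotype alone had to differ, and these counts describe the members without supporting a statement on the family. Cadherin superfamily genes outside the 37 were not analysed here.

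**Figure D1:**
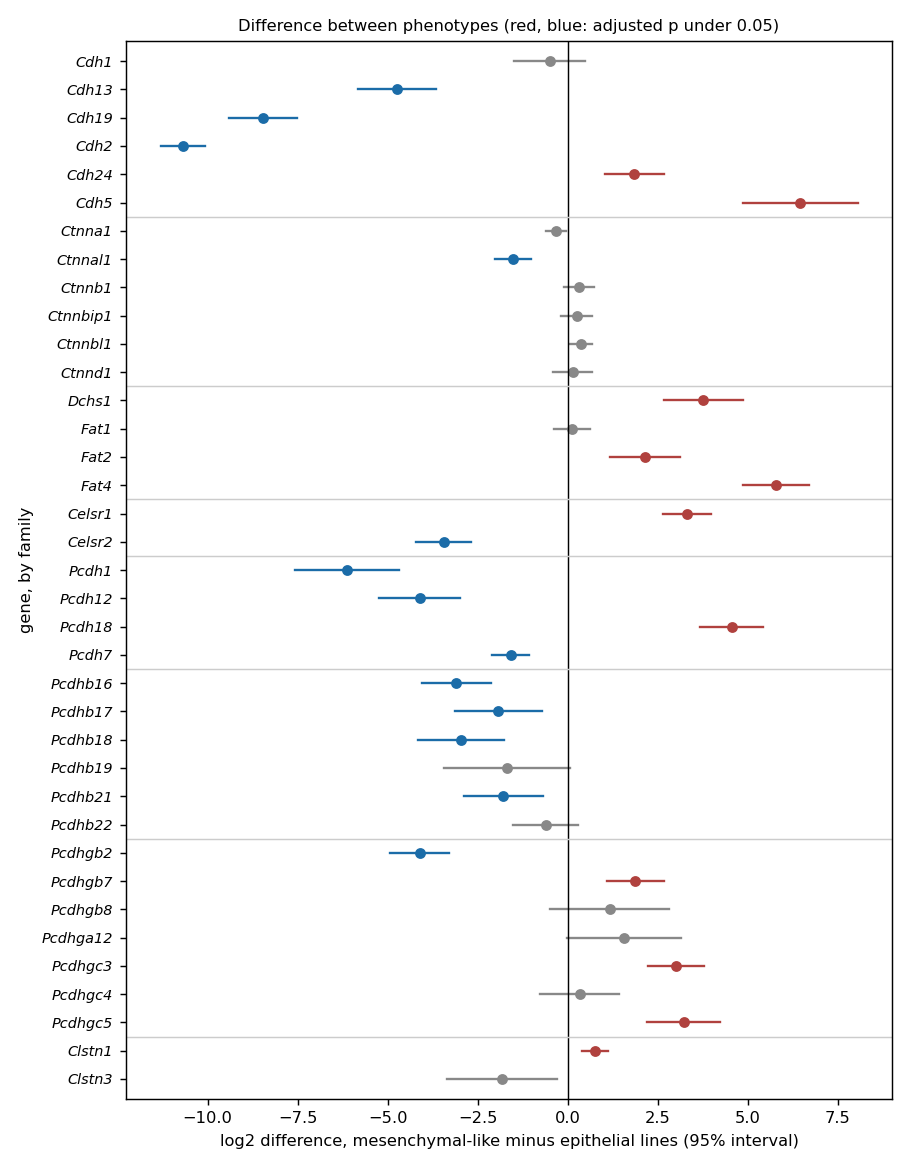
Log2 difference of each member, mesenchymal-like minus epithelial (x axis, mean of the 2 line means on each side, with its 95% interval), by family on the y axis, with red for members higher and blue for members lower at an adjusted p under 0.05. *Cdh2* and *Cdh19* lie farthest to the left and *Cdh5* and *Fat4* farthest to the right, and the fitted size of genes at 0 reads in a group depends on the floor.

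**Figure D2:**
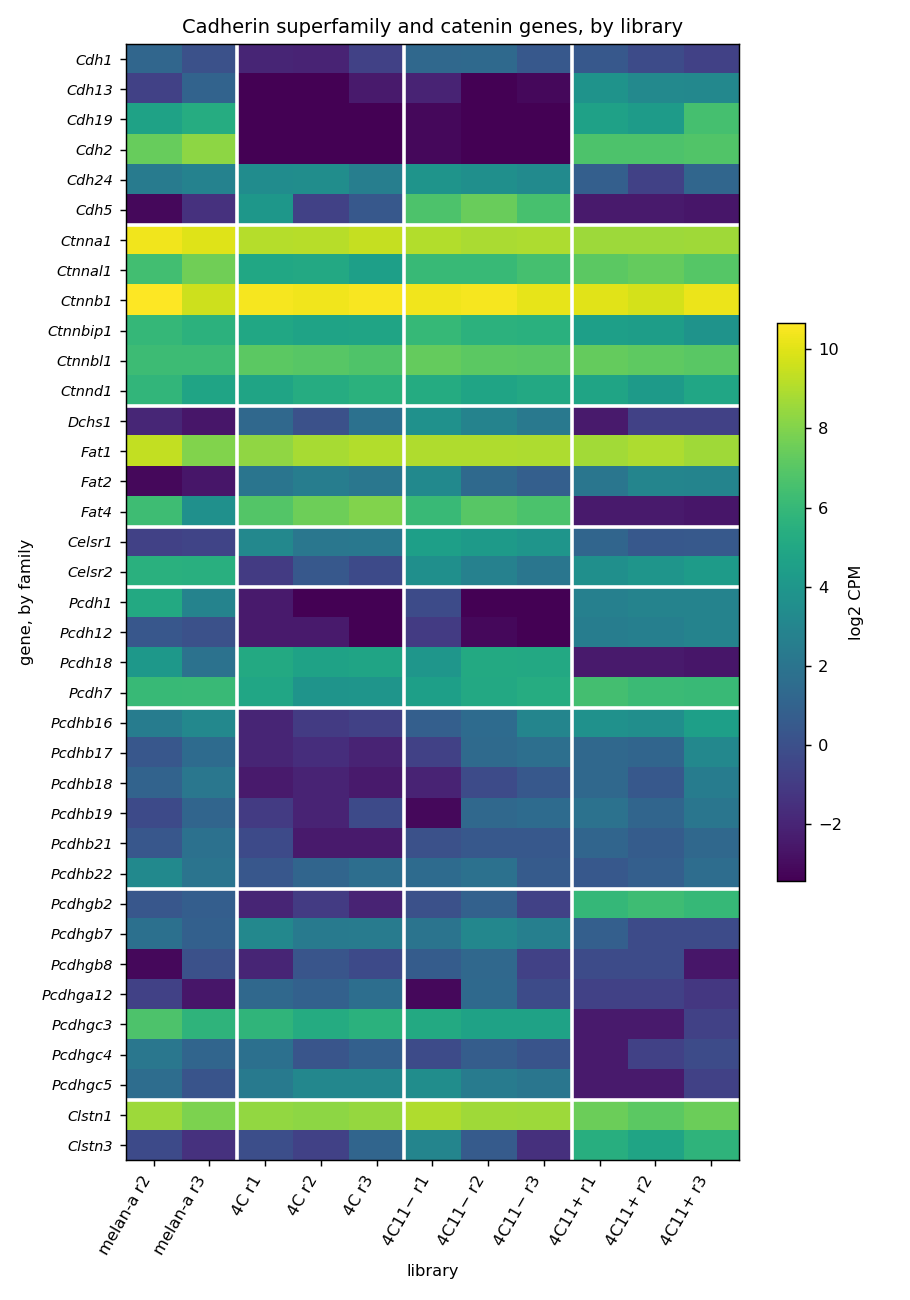
Log2 CPM (color) of the 37 members (rows, by family) in the 11 libraries (columns, by line). *Ctnnb1*, *Ctnna1*, *Fat1* and *Clstn1* stay bright in every library, while *Cdh2* and *Cdh19* are dark in all 6 libraries of 4C and 4C11−, and *Fat4* and *Pcdh18* in the 3 libraries of 4C11+.

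Of the 37 members, 17 lie on chromosome 18, among them *Cdh2*, *Ctnna1* and both protocadherin clusters, and *Cdh1* (chr8:106603351-106670246), *Cdh5* (chr8:104101625-104144511) and *Cdh13* (chr8:118283733-119324921) share chromosome 8 with *Fat1* (GRCm38, GENCODE M21).

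The neural crest cadherins *Cdh2* (N-cadherin) and *Cdh19* were present in both epithelial lines and had no read in any library of the mesenchymal-like lines. *Cdh2* was at 7.41 and 8.28 in melan-a and at 6.71, 6.72 and 6.84 in 4C11+, and it had 0 reads in all 3 libraries of 4C and all 3 of 4C11−. *Cdh19*, a type II cadherin of Schwann cell precursors and other neural crest derivatives, was at 4.66 and 5.29 in melan-a and at 4.65, 4.31 and 6.52 in 4C11+, again with 0 reads in the other 6 libraries. Of the Schwann cell or glia markers, *S100b* (−6.84 ± 0.57), *Erbb3* (−6.17 ± 0.44) and *Mbp* (−2.30 ± 0.29) were also lower in the mesenchymal-like lines, *Ngfr* differed by −1.45 ± 0.57 (adjusted p = 0.0755), and their part in the *Cdh19* result was not tested. The groups did not overlap, and 3 reads per library as the floor place *Cdh2* at least 549-fold lower in 4C than in melan-a and at least 321-fold higher in 4C11+ than in 4C11−. For *Cdh19* these bounds were 75.4-fold and 106-fold. Between phenotypes, the log2 difference of *Cdh2* was −8.71 or lower (limma adjusted p = 9.14e-10) and that of *Cdh19* −6.48 or lower (adjusted p = 5.34e-08). Within the epithelial phenotype, 4C11+ minus melan-a was −1.09 ± 0.42 (SE) for *Cdh2*, which did not pass (adjusted p = 0.106), and 0.18 ± 0.65 for *Cdh19* (adjusted p = 0.873). Per kilobase of exon, *Cdh2* was the most abundant *Cdh* gene in melan-a (29.8 CPM per kb against 7.53 for *Cdh19*) and in 4C11+ (13.4 against 10.6).

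*Cdh1*, the E-cadherin that anchors melanocytes in the epidermis, was low in every line. It had 9 and 5 reads in melan-a, 2, 2 and 4 in 4C, 13, 19 and 10 in 4C11−, and 4, 2 and 2 in 4C11+, and its values overlapped between phenotypes (difference −0.50 ± 0.45, adjusted p = 0.454). Per kilobase it reached 0.471 CPM in 4C11− and 0.367 in melan-a, against 29.8 for *Cdh2* in melan-a. It fell by 2.20 ± 0.67 on the log2 scale from melan-a to 4C (adjusted p = 0.0469), a call that ended without any 1 of 7 libraries, all but melan-a replicate 3, 4C replicate 3 and 4C11− replicates 1 and 3 (adjusted p 0.0252 to 0.27 over the alternatives). The 95% interval of the difference between phenotypes, −1.48 to 0.49, spans 2 pairs of lines with effects of opposite sign, −2.20 from melan-a to 4C and 1.21 ± 0.60 for 4C11− against 4C11+ (the latter not called). The keratin *Krt18*, a marker of simple epithelia, was not high in the lines with the epithelial label. It was at 9.40, 9.36 and 8.94 in 4C and 8.18, 7.64 and 8.08 in 4C11−, and it had at most 3 reads in the libraries of melan-a and 4C11+.

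*Cdh13* (T-cadherin, which is held in the membrane by a lipid anchor and lacks a catenin-binding tail) was at 3.82, 3.20 and 3.13 in 4C11+ and at −0.72 and 1.04 in melan-a, and it had at most 1 read in each library of 4C and 4C11−. All 3 libraries of 4C11+ lay above both of melan-a, and these above all 6 mesenchymal-like libraries. The mesenchymal-like lines held 3 reads in all, which gives a ratio of 75.9 with a counting interval of 26.0 to 368 (exact Poisson, 95%, counting error only), and the adjusted p was 1.91e-05. 4C11+ was 3.22 ± 0.74 above melan-a (adjusted p = 0.0136), and this call was lost without melan-a replicate 2 (difference 2.35, adjusted p = 0.128) and without 4C11+ replicate 1 (difference 3.01, adjusted p = 0.0648; range over the alternatives 0.00495 to 0.128). *Cdh24*, a type II cadherin, was called the other way between phenotypes. It was at 2.41 and 2.83 in melan-a, 3.45, 3.50 and 2.60 in 4C, 3.84, 3.59 and 3.33 in 4C11−, and 0.84, −0.70 and 1.20 in 4C11+. From melan-a to 4C it changed by 0.56 ± 0.55, with overlapping libraries, and was not called. All libraries of 4C11+ lay below the other 8, and *Cdh24* fell by 3.14 ± 0.49 from 4C11− to 4C11+ (adjusted p = 5.76e-04). It was the most abundant *Cdh* gene per kilobase in 4C, at 2.70 CPM per kb as a mean of the 3 libraries.

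*Cdh5* (VE-cadherin, the junctional cadherin of endothelium) distinguished 4C11− from every other line. Its values were 6.73, 7.43 and 6.54 in 4C11−, 4.01, −0.70 and 0.44 in 4C, and it had 0 and 1 reads in melan-a and 0 reads in the 3 libraries of 4C11+. The 3 libraries of 4C11− were above all others, and within 4C replicate 1 stood far above the other 2 cultures. 4C11− exceeded 4C by 5.65 ± 0.97 (adjusted p = 0.0135), which was no longer called without 4C replicate 2 (difference 4.67, adjusted p = 0.0518), 4C replicate 3 (5.24, 0.0739) or 4C11− replicate 2 (5.38, 0.0745), and the adjusted p was 3.63e-04 to 0.0745 over the alternatives. *Cdh5* was at least 117-fold lower in 4C11+ than in 4C11− (adjusted p = 2.39e-05). Per kilobase, *Cdh5* in 4C11− (29.4 CPM per kb) was close to *Cdh2* in melan-a (29.8).

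The comparison of 4C with melan-a also called *Cdh5* higher (adjusted p = 0.0476), a call close to the threshold. It ended in 15 alternatives, 9 of them with a single library left out, any but 4C replicate 2 and 4C11− replicate 1 (adjusted p 0.0155 to 0.329). The difference of 3.54 became 2.16 without 4C replicate 1 (adjusted p = 0.0657) and 2.67 without melan-a replicate 2 (adjusted p = 0.254). The other endothelial markers measured were *Flt1*, the VEGF receptor 1, and *Vwf*. *Flt1* was at 3.62, 3.76 and 3.11 in 4C11−, at 1.13, 0.08 and −0.70 in 4C, and at no more than 1 read elsewhere, and thus followed *Cdh5*, whereas *Vwf* was at 4.91 and 2.29 in melan-a and at 4.21, 2.52 and 1.51 in 4C11−. Without *Cdh5* itself, these 2 endothelial markers summed to 11.5 to 30.8 CPM in 4C11−, 3.82 to 9.58 CPM in 4C, 5.25 and 30.2 CPM in melan-a and 1.02 to 1.97 CPM in 4C11+, and their part in the *Cdh5* result was not tested.

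**Figure D3:**
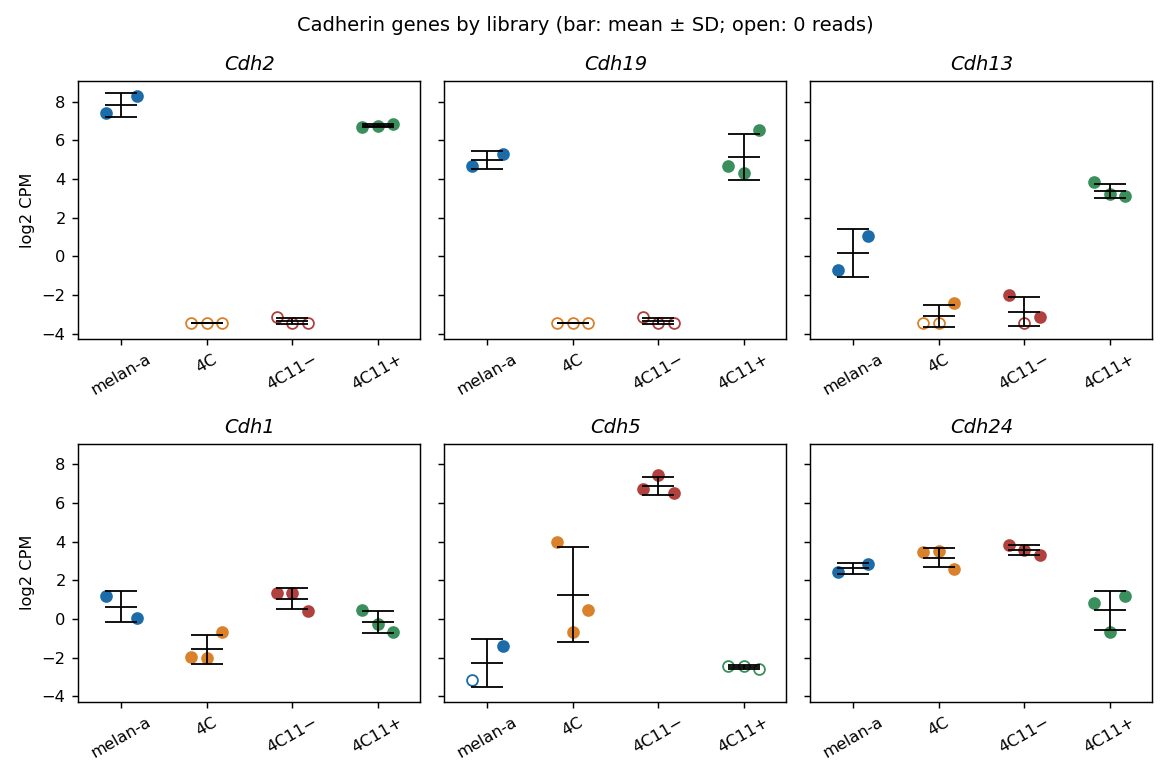
Log2 CPM of the 6 *Cdh* genes (panels) in the libraries of the 4 lines (x axis), with 1 point per library, open where it had 0 reads, and a bar for the mean ± SD. *Cdh2* and *Cdh19* are at the floor in 4C and 4C11−, *Cdh13* is highest in 4C11+, *Cdh5* is highest in 4C11−, and *Cdh24* is lowest in 4C11+.

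The catenins were expressed in all lines, and β-catenin itself did not pass any of the 6 tests. *Ctnnb1* was at 10.66 and 9.59 in melan-a, 10.46, 10.36 and 10.55 in 4C, 10.34, 10.49 and 10.13 in 4C11−, and 10.03, 9.76 and 10.27 in 4C11+. Its 4 lines overlapped, the 2 melan-a cultures spanned the range, and the 95% interval of the difference between phenotypes, −0.11 to 0.73 on the log2 scale, leaves room for a change below 2-fold. At 202 to 270 CPM per kb it was the most abundant member per length in every line. *Ctnnd1* (p120-catenin, which stabilizes cadherins at the membrane) lay between 4.24 and 5.86 in all 11 libraries and differed between phenotypes by 0.14 ± 0.25 (adjusted p = 0.731), but 61.2% of its exon bases also belong to another annotated gene on the same strand, and the counting of such reads was not given in the sources used here.

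*Ctnna1* (α-catenin, the link to actin) was at 10.37 and 9.97 in melan-a, 9.11, 9.13 and 9.40 in 4C, 9.03, 8.89 and 8.92 in 4C11−, and 8.62, 8.62 and 8.64 in 4C11+. It was thus highest in both melan-a cultures and lowest in all 3 of 4C11+, without overlap between melan-a, the mesenchymal-like lines and 4C11+. It fell by 0.95 ± 0.19 from melan-a to 4C (adjusted p = 0.00548) and by 1.54 ± 0.19 from melan-a to 4C11+ (adjusted p = 3.27e-04), and both calls held in all alternatives. Among the 37 members, 22 passed in the comparison of 4C with melan-a (15.2% of all genes), 6 higher and 16 lower in 4C (7.64% and 7.55% of all genes), and 14 in that of 4C11+ with melan-a (15.9%), 5 higher and 9 lower in 4C11+ (8.39% and 7.52%). These 2 comparisons share the melan-a libraries.

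*Ctnnal1* (α-catulin, a relative of α-catenin) was the catenin-named gene called between phenotypes. It was at 6.41 and 7.63 in melan-a, 4.98, 5.07 and 4.54 in 4C, 6.09, 6.07 and 6.51 in 4C11−, and 7.11, 7.30 and 6.97 in 4C11+. The lowest 3 values were those of 4C, and the phenotypes overlapped in 4C11− replicate 3 and melan-a replicate 2. The difference was −1.53 ± 0.23 (adjusted p = 3.42e-04). *Ctnnbip1* (ICAT, a small inhibitor that keeps β-catenin from TCF factors) was at 5.94 and 5.63 in melan-a, 4.95, 4.72 and 4.79 in 4C, 5.99, 5.65 and 5.50 in 4C11−, and 4.53, 4.42 and 3.80 in 4C11+. All libraries of 4C11+ were below all others, with differences of −1.47 ± 0.26 to 4C11− (adjusted p = 0.00142) and −1.54 ± 0.29 to melan-a (adjusted p = 0.0053). An antisense gene covers 25.8% of its exon bases. *Ctnnbl1*, which despite its name is a component associated with the spliceosome, was at 6.21 and 6.23 in melan-a and between 6.78 and 7.33 in the 9 derived libraries, and 4C11+ exceeded melan-a by 0.95 ± 0.21 (adjusted p = 0.0108). That call ended without 4C11+ replicate 1 (difference 0.87, adjusted p = 0.0571; range 0.0059 to 0.0571).

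The Fat and Dachsous cadherins form a ligand and receptor system of planar polarity, in which Dchs1 on one cell binds Fat4 on the next. *Dchs1* had 1 and 0 reads in melan-a and 0, 1 and 2 in 4C11+, and it was at 1.32, 0.08 and 1.83 in 4C and at 3.68, 2.86 and 2.26 in 4C11−. All 6 mesenchymal-like libraries lay above all 5 epithelial libraries, with a difference of 3.77 ± 0.50 (adjusted p = 1.36e-04). *Fat4* was at 6.30 and 3.64 in melan-a, 6.88, 7.53 and 7.97 in 4C, and 6.14, 6.99 and 6.65 in 4C11−, and it had 0 reads in all 3 libraries of 4C11+. Of the melan-a cultures, replicate 2 (the one with the higher fibroblast and macrophage marker sums) was the higher, and whether the value is tied to those markers was not tested. Against 4C11−, *Fat4* in 4C11+ was at least 94.8-fold lower (adjusted p = 4e-07), and against melan-a at least 30.8-fold lower (adjusted p = 1.4e-05).

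Melan-a therefore held *Fat4* without more than 1 read of *Dchs1* in a library, 4C and 4C11− held both, and 4C11+ held neither above 2 reads. *Fat1*, the Fat cadherin of cell edges and actin protrusions, was at 8.01 to 9.35 in all 11 libraries (27.6 to 31.9 CPM per kb) and passed no test. *Fat2* had 0 reads in both melan-a cultures and 13 reads or more in every derived library, with 2.02, 2.55 and 2.15 in 4C, 3.27, 1.36 and 0.85 in 4C11−, and 2.09, 2.96 and 2.92 in 4C11+. It was at least 6.22-fold higher in 4C (adjusted p = 2.5e-04) and at least 8.29-fold higher in 4C11+ (adjusted p = 2.52e-04) than in melan-a, both bounds resting on the 2 libraries of melan-a. Its call as higher in the mesenchymal-like lines (2.14 ± 0.45, adjusted p = 0.00348) ended when values under 3 reads were set to 3 reads (0.90, adjusted p = 0.132; lowest over the alternatives 0.00185).

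*Pcdh18*, a nonclustered δ-protocadherin, shared with *Fat4* the absence of reads in 4C11+. It was at 4.08 and 1.89 in melan-a, 5.14, 4.70 and 4.79 in 4C, and 3.96, 5.12 and 5.09 in 4C11−, with 0 reads in the 3 libraries of 4C11+. It was at least 26.0-fold lower in 4C11+ than in 4C11− (adjusted p = 1.55e-06) and at least 7.79-fold lower than in melan-a (adjusted p = 1.12e-04). With *Cdh5*, these were the 3 members at 0 reads in every library of 4C11+. Both *Fat4* and *Pcdh18* lie on chromosome 3, and the 250 bases before their start sites are shown because both genes were at 0 reads in the metastatic line (RefSeq, GRCm38.p6; chr3:38886690-38886939 on the plus strand and chr3:49757317-49757566 on the minus strand, written 5′ to 3′).
Fat4: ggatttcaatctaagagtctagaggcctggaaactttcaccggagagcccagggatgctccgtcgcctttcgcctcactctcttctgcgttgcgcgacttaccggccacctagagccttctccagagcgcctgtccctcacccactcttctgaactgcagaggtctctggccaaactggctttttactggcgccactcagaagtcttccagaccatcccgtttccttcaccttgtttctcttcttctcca
Pcdh18: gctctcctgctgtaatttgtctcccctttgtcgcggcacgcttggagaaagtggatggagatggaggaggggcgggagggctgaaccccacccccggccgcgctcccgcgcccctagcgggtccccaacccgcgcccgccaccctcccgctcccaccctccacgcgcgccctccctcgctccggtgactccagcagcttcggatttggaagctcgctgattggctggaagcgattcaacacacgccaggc
Neither stretch holds the E-box of Snail and Zeb factors (CAGGTG), the E-box of MITF (CATGTG) or the TCF/LEF core (CTTTGA) on either strand, which says only that these letters are not in this window.

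The seven-pass cadherins Celsr1 and Celsr2, vertebrate relatives of Flamingo in planar polarity, moved in opposite directions. *Celsr1* was at −0.72 and −0.54 in melan-a, 3.13, 2.17 and 2.21 in 4C, 4.50, 4.23 and 3.93 in 4C11−, and 1.18, 0.44 and 0.48 in 4C11+. *Celsr2* was at 5.50 and 5.45 in melan-a, −1.01, 0.44 and −0.25 in 4C, 3.57, 2.73 and 2.09 in 4C11−, and 3.57, 3.93 and 4.27 in 4C11+. The phenotypes did not overlap for either gene, although 4C11− replicate 1 and 4C11+ replicate 1 differed for *Celsr2* by less than the second decimal. The mesenchymal-like minus epithelial difference was 3.32 ± 0.30 for *Celsr1* (adjusted p = 6.48e-06) and −3.44 ± 0.35 for *Celsr2* (adjusted p = 1.55e-05). Per kilobase, *Celsr2* exceeded *Celsr1* in melan-a (3.87 against 0.059 CPM per kb) and 4C11+ (1.35 against 0.152), and *Celsr1* exceeded *Celsr2* in 4C (0.540 against 0.078) and 4C11− (1.71 against 0.661).

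The effect on *Celsr2* differed between the pairs of lines (interaction adjusted p = 0.00197). It fell by 5.75 ± 0.52 from melan-a to 4C (adjusted p = 1.24e-05), rose by 3.08 ± 0.47 from 4C to 4C11− (adjusted p = 0.00591), and did not pass between 4C11− and 4C11+ (1.13 ± 0.47 higher in 4C11+, adjusted p = 0.0872). The promoter of *Celsr2* is shown because it carries the E-box of the Snail and Zeb factors, transcriptional repressors that promote EMT and whose classical target is *Cdh1*. Their action on *Celsr2* was not tested. The E-box CAGGTG (capitals) begins 172 and 30 bases before the start site (RefSeq, GRCm38.p6; chr3:108415580-108415829 on the minus strand).
Celsr2: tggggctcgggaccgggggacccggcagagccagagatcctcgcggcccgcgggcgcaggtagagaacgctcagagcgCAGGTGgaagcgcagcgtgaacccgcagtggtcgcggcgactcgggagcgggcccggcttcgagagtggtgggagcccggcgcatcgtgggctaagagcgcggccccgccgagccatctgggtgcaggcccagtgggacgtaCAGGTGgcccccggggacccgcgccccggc
Of the 37 members, 14 had a promoter entry, and 4 of them held this E-box in the 300 bases around a start (*Celsr2*, *Clstn3*, *Fat1* and *Pcdh7*), as did 22.6% of the 27025 genes with a promoter entry of that length (20.2% of all 32851 promoters). The MITF E-box was found in 2 of the 14 (*Ctnnd1* and *Fat2*; 15.9% of genes, 14.2% of all promoters) and the TCF/LEF core in 1 (*Pcdh7*; 18.2% of genes, 16.0% of all promoters), with both strands searched.

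Among the single protocadherins, *Pcdh1*, *Pcdh12* and *Pcdh7* were lower in the mesenchymal-like lines. *Pcdh1*, an adhesion protein of airway epithelium, was at 5.10 and 2.86 in melan-a and at 2.69, 2.86 and 2.85 in 4C11+, with 1, 0 and 0 reads in 4C and 4, 0 and 0 in 4C11−. The phenotypes did not overlap, and the difference was −6.13 ± 0.65 (adjusted p = 2.35e-05), with a ratio of 4C to melan-a that rests on 1 read (401-fold, counting interval 72.0 to 15847). *Pcdh12*, a protocadherin known from endothelium and trophoblast, was at 0.40 and 0.06 in melan-a (5 reads each) and at 2.54, 2.63 and 2.89 in 4C11+, with at most 2 reads in each mesenchymal-like library. It was 5.22 ± 0.69 higher in 4C11+ than in 4C11− (adjusted p = 1.55e-04) and so did not follow *Cdh5* and *Flt1*, which were highest in 4C11−. *Pcdh7* was at 6.06 and 6.11 in melan-a, 4.88, 3.86 and 3.90 in 4C, 4.50, 5.09 and 5.29 in 4C11−, and 6.47, 6.15 and 6.14 in 4C11+, a difference of −1.58 ± 0.24 between phenotypes without overlap (adjusted p = 3.41e-04).

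The clustered protocadherins of chromosome 18 give neurons their individual surface codes, each variable exon having a promoter of its own. Of the 6 *Pcdhb* genes measured, 5 had their lowest line mean in 4C, and *Pcdhb22* had it in 4C11+ (0.97, against 1.08 in 4C). *Pcdhb16* was at 2.49 and 3.13 in melan-a, −1.98, −1.01 and −0.70 in 4C, 0.85, 1.51 and 2.96 in 4C11−, and 3.69, 3.54 and 4.54 in 4C11+. The 4C libraries lay below all others and those of 4C11+ above all others. The difference of *Pcdhb16* was −3.09 ± 0.44 between phenotypes (adjusted p = 2.13e-04), −4.04 ± 0.65 from melan-a to 4C (adjusted p = 0.0012) and 3.01 ± 0.58 from 4C to 4C11− (adjusted p = 0.0253), and the last call ended without any 1 of 6 libraries, those of 4C, 4C11− replicates 2 and 3 and 4C11+ replicate 1 (adjusted p 0.00342 to 0.0844).

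*Pcdhb18* (difference between phenotypes −2.95 ± 0.55, adjusted p = 0.00158), *Pcdhb17* (−1.93 ± 0.55, adjusted p = 0.02) and *Pcdhb21* (−1.79 ± 0.50, adjusted p = 0.0177) were also called lower in the mesenchymal-like lines. The calls of *Pcdhb17* and *Pcdhb21* ended without melan-a replicate 3 (−1.66, adjusted p = 0.0802, and −1.43, adjusted p = 0.0829; lowest over the alternatives 0.0157 and 0.00103). *Pcdhb19* and *Pcdhb22* did not pass in any comparison. In 4C, these 6 genes had 1 to 18 reads per library, and in 4C11− replicate 1 they were at 0 to 14 reads, *Pcdhb19* having none against 18 and 20 reads in the other 2 cultures. Windows of 100 bases occurred in a transcript of another gene for 7.73% of *Pcdhb21* and 5.39% of *Pcdhb22*, which overlap each other, and for at most 0.373% of the other 4, so their reads could largely be told apart.

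Among the 7 *Pcdhg* genes measured, *Pcdhgc3* had the highest line mean in melan-a, 4C and 4C11−, and *Pcdhgb2* had it in 4C11+. These levels are subject to the shared exons described below. *Pcdhgb2* was at 5.98, 6.31 and 5.99 in 4C11+, against 0.40 and 0.75 in melan-a, −1.98, −1.01 and −2.01 in 4C, and 0.06, 0.96 and −0.70 in 4C11−. *Pcdhgc3* was at 6.70 and 5.73 in melan-a, 5.79, 5.22 and 5.59 in 4C, and 5.11, 4.67 and 4.67 in 4C11−, and it had 0, 0 and 2 reads in 4C11+. Neither gene overlapped between 4C11+ and the other lines. *Pcdhgb2* was higher in 4C11+ by 5.98 ± 0.49 than in 4C11− (adjusted p = 4.16e-06) and by 5.52 ± 0.55 than in melan-a (adjusted p = 6.02e-05). *Pcdhgc3* was lower in 4C11+ with a ratio of 195 to 4C11− (counting interval 54.1 to 1613; adjusted p = 1.16e-06) and of 540.3 to melan-a (150 to 4461; adjusted p = 2.14e-06), both resting on 2 reads.

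*Pcdhgc5* followed *Pcdhgc3* in that comparison, with 0, 0 and 2 reads in 4C11+ and values of 3.48, 2.41 and 2.09 in 4C11− (ratio 47.4, counting interval 13.1 to 391; adjusted p = 2.05e-04). *Pcdhgb7* was at 3.15, 2.32 and 2.45 in 4C, 1.97, 3.11 and 2.64 in 4C11−, 1.77 and 0.89 in melan-a, and 0.84, −0.24 and −0.24 in 4C11+, with a difference of −2.45 ± 0.48 from 4C11− to 4C11+ (adjusted p = 0.00266). *Pcdhgc4* had 0, 1 and 3 reads in 4C11+ and 17 and 12 in melan-a, and *Pcdhga12* and *Pcdhgb8*, the latter annotated as a polymorphic pseudogene, had at most 19 reads in a library and no call. Apart from *Pcdhgb2*, no *Pcdhg* gene had more than 6 reads in a library of 4C11+.

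The genes of the *Pcdhg* cluster share their last exons. Between 31.8 and 45.9% of the exon bases of each lie in 25 other annotated genes on the same strand, 30.8 to 47.8% of their 100-base windows occur in other transcripts, and an antisense gene covers 28.4% of the exon bases of *Pcdhgc3*. The counting of reads in shared exons was not given in the sources used here, so the level of a single *Pcdhg* gene is uncertain.

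**Figure D4:**
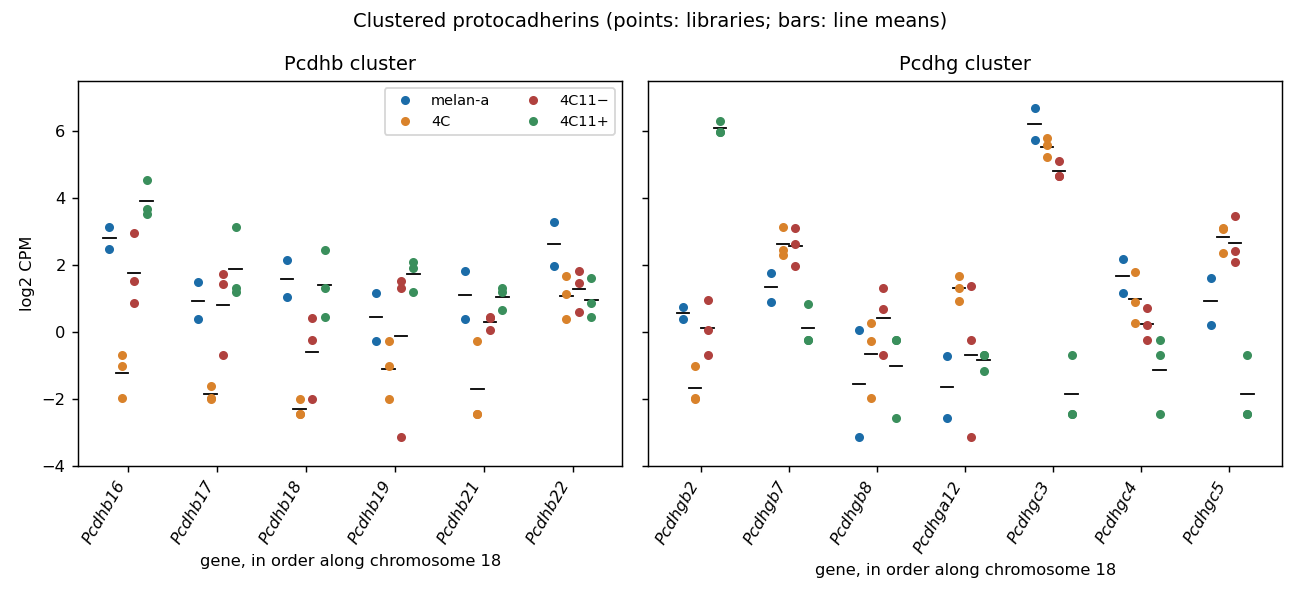
Log2 CPM of the *Pcdhb* and *Pcdhg* genes in their order along chromosome 18 (x axis), with 1 point per library, colored by line, and a black bar for the line mean. The *Pcdhb* genes other than *Pcdhb22* have their lowest line mean in 4C, and in 4C11+ *Pcdhgb2* is near 6 while *Pcdhgc3* and *Pcdhgc5* fall to the floor.

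The calsyntenins are membrane proteins with cadherin repeats that link vesicles to kinesin and organize synapses. *Clstn3* was at −0.25 and −1.42 in melan-a, −0.04, −0.70 and 1.18 in 4C, 2.97, 0.60 and −1.50 in 4C11−, and 5.41, 4.81 and 5.72 in 4C11+. All 3 libraries of 4C11+ were above all others, and the cultures of 4C11− differed widely. It was higher in 4C11+ by 4.62 ± 0.93 than in 4C11− (adjusted p = 0.00291) and by 6.15 ± 1.04 than in melan-a (adjusted p = 0.00249). *Clstn1* was among the abundant members, at 8.59 and 7.86 in melan-a, 8.40, 8.27 and 8.45 in 4C, 8.98, 8.66 and 8.57 in 4C11−, and 7.51, 7.10 and 7.48 in 4C11+. The lowest 3 values were those of 4C11+, and the difference from 4C11− to 4C11+ was −1.37 ± 0.23 (adjusted p = 7.55e-04).

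Between 4C11+ and 4C11−, 21 of the 37 members passed, against 31.1% of all genes. In 4C11+ 10 were higher and 11 lower (15.6% and 15.4% of all genes). Higher in the metastatic line were *Cdh2*, *Cdh19*, *Cdh13*, *Pcdh1*, *Pcdh12*, *Pcdh7*, *Pcdhb16*, *Pcdhgb2*, *Clstn3* and *Ctnnal1*, and lower were *Cdh5*, *Cdh24*, *Celsr1*, *Dchs1*, *Fat4*, *Pcdh18*, *Pcdhgb7*, *Pcdhgc3*, *Pcdhgc5*, *Clstn1* and *Ctnnbip1*. Of these calls, that of *Ctnnal1* ended without any 1 of 7 libraries, those of 4C11+, 4C11− replicates 1 and 2 and 4C replicates 1 and 2 (adjusted p 0.0105 to 0.138), and that of *Pcdhb16* without 4C11+ replicate 3 (1.83, adjusted p = 0.0595) or 4C11− replicate 2 (2.01, adjusted p = 0.0558; range 0.0037 to 0.0799). Between 4C11− and 4C, 3 members passed, *Cdh5*, *Celsr2* and *Pcdhb16*, against 1.67% of all genes. All 3 were higher in 4C11− (1.26% of all genes were), and 0 were lower by limma (0.406% of all genes). At an unadjusted p under 0.05, 13 members were higher and 0 lower, and the share of all genes at that threshold is not given here.

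The difference between phenotypes could be taken within 2 pairs of lines that share no library, 4C minus melan-a among the nontumorigenic lines and 4C11− minus 4C11+ among the tumorigenic lines. The pairs are not independent, since the fit estimates the spread from all 11 libraries together and the derived lines all descend from melan-a. The sign was the same in 27 of the 37 members (73.0%, against 61.1% of all genes). In both pairs 9 members were called lower in the mesenchymal-like line, where 3.9% of all genes were (*Cdh2*, *Cdh13*, *Cdh19*, *Ctnnal1*, *Pcdh1*, *Pcdh7*, *Pcdh12*, *Pcdhb16* and *Pcdhgb2*). In both pairs 4 were called higher, where 4.83% of all genes were (*Cdh5*, *Celsr1*, *Dchs1* and *Fat4*). Of these 4, only *Celsr1* kept its call from melan-a to 4C in every alternative, and that of *Cdh5* ended in 15 (highest adjusted p = 0.329). *Ctnnbip1* was called lower in 4C than in melan-a and higher in 4C11− than in 4C11+, and 0.862% of all genes were called in opposite directions. The fall of *Ctnnbip1* from melan-a to 4C (0.96 ± 0.29, adjusted p = 0.0467) ended without any 1 of 9 libraries, all but 4C11− replicate 1 and 4C11+ replicate 3 (adjusted p 0.0219 to 0.205). Of the calls from melan-a to 4C, those of *Cdh13* (−2.39, adjusted p = 0.101), *Dchs1* (2.98, 0.0636), *Fat4* (1.16, 0.141), *Pcdh12* (−3.17, 0.063) and *Pcdhgb2* (−2.07, 0.0823) ended without melan-a replicate 3. *Fat4* also lost its call without 4C replicate 2 (2.46, 0.0605) or replicate 3 (2.24, 0.0704), *Pcdh12* without 4C replicate 3 (−2.67, 0.0661) or melan-a replicate 2 (−2.84, 0.0976), and *Pcdhgb2* without 4C replicate 3 (−2.07, 0.0535). With values under 3 reads set to 3 reads, the calls of *Cdh13* (−1.65, 0.0730), *Dchs1* (1.47, 0.112) and *Pcdh12* (−1.49, 0.0686) ended too. The highest adjusted p of *Dchs1* was 0.14, with array weights, and the lowest over the alternatives was 0.00436 for *Cdh13*, 0.0078 for *Dchs1*, 8.85e-05 for *Fat4*, 0.00402 for *Pcdh12* and 0.0114 for *Pcdhgb2*.

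The difference between these 2 effects passed the interaction test for 13 members, against 9.83% of all genes, 3 with a positive difference (3.95%) and 10 with a negative one (5.88%). It was largest for *Pcdhgc3*, which changed by −0.69 ± 0.53 from melan-a to 4C and stood 6.67 ± 0.47 higher in 4C11− than in 4C11+ (interaction adjusted p = 9.39e-05). For *Fat4* the effects were 2.49 ± 0.63 and 9.08 ± 0.56 (adjusted p = 6.08e-04), and for *Pcdh18* 1.89 ± 0.59 and 7.21 ± 0.53 (adjusted p = 0.00184). *Fat2* and *Clstn3* went the other way, *Fat2* with 5.11 ± 0.67 and −0.83 ± 0.60 (adjusted p = 0.00196) and *Clstn3* with 0.98 ± 1.04 and −4.62 ± 0.93 (adjusted p = 0.0273). The call of *Clstn3* ended without any 1 of 7 libraries, all but melan-a replicate 2, 4C replicate 2 and 4C11− replicates 1 and 3 (adjusted p 0.00252 to 0.0685). *Fat4* and *Pcdh18* had 0 reads in 4C11+, *Fat2* had 0 in melan-a, and *Pcdhgc3* had at most 2 per library in 4C11+. The fitted sizes of these effects therefore depend on the floor. With 3 reads per library as the floor, 4C11+ minus 4C11− was −6.57 or lower for *Fat4* and −4.70 or lower for *Pcdh18*. *Cdh2* and *Cdh19* did not pass this test (adjusted p = 0.218 and 0.963), and the interval for *Cdh19* was −1.82 to 1.99 on the log2 scale.

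**Figure D5:**
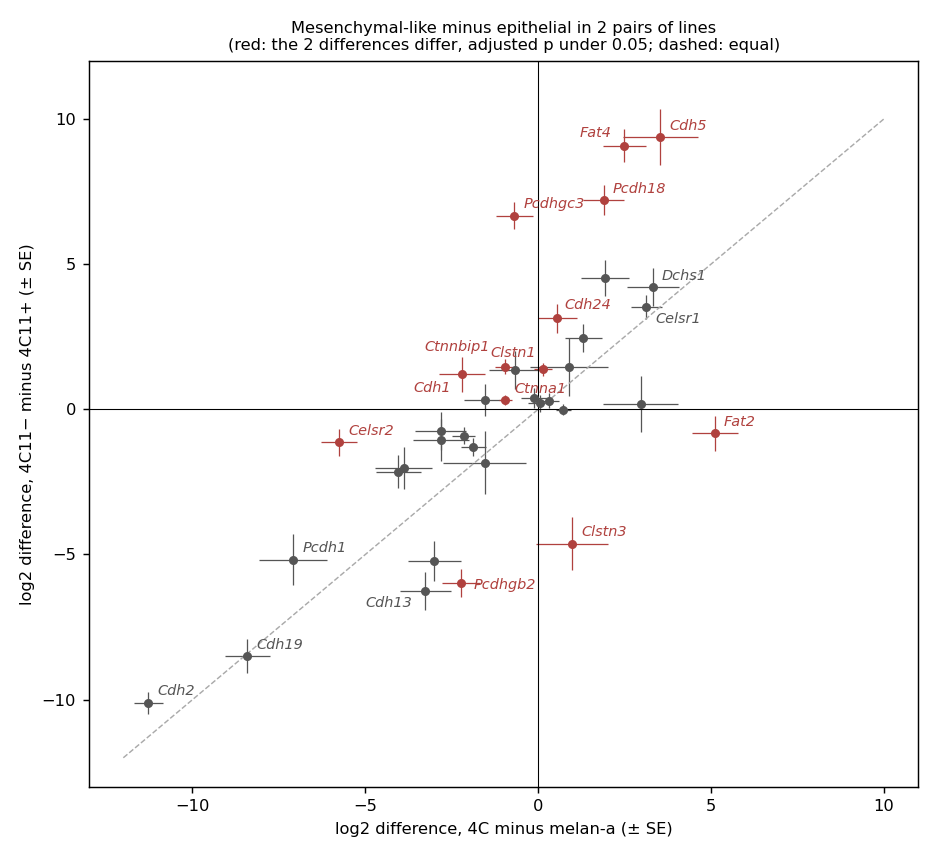
Log2 difference of each member from melan-a to 4C (x axis) against that of 4C11− from 4C11+ (y axis), each ± SE, with red for members whose 2 differences differ at an adjusted p under 0.05 and a dashed line where they are equal. *Cdh2*, *Cdh19* and *Celsr1* lie near the dashed line, and *Fat4*, *Pcdh18* and *Pcdhgc3* lie far above it. The fitted position of genes with few or no reads in a line depends on the floor.

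The partners of these genes were read from lists. Between phenotypes, 14.3% of all genes were higher and 15.3% lower in the mesenchymal-like lines. Of 19 junction partners, 6 were higher and 3 lower, among them the desmosomal plakophilin *Pkp1* (4.96 ± 0.47 higher, adjusted p = 9.21e-06), *Nectin1* (4.62 ± 0.36, adjusted p = 1.54e-06), plakoglobin *Jup*, which can replace β-catenin on a cadherin (3.31 ± 0.39, adjusted p = 5.62e-05), the tight junction scaffold *Tjp3* (−3.77 ± 0.57, adjusted p = 3.86e-04) and *Pkp2* (−3.34 ± 0.59, adjusted p = 0.00117). *Jup* was at 7.62 and 4.92 in melan-a, so that replicate 2 lay with the mesenchymal-like libraries. Of 15 planar polarity partners, 4 were higher and 2 lower, and the median of the list, −0.03, was close to that of all genes (−0.09). Those with the largest differences were *Ankrd6* (1.82 ± 0.59), *Prickle1* (−1.23 ± 0.37), *Fjx1* (0.97 ± 0.33), *Dlg5* (0.84 ± 0.23) and *Dvl3* (−0.69 ± 0.21), with adjusted p of 0.0156 to 0.045.

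Of 25 genes of the β-catenin complex and its readout, 10 were higher and 0 lower in the mesenchymal-like lines by limma (14.3% and 15.3% of all genes), while *Ctnnb1* itself was not called. The 5 with the largest differences were *Nkd1* (6.91 ± 0.30), *Notum* (5.11 ± 0.56), *Axin2* (4.03 ± 0.35), *Lef1* (3.60 ± 0.41) and *Tcf7* (2.36 ± 0.46), the first 3 being feedback inhibitors that Wnt signaling induces. In the same list, *Ccnd1* (0.27 ± 0.22, adjusted p = 0.382), *Myc* (−0.30 ± 0.45, adjusted p = 0.663) and *Znrf3* (0.02 ± 0.24, adjusted p = 0.969) were not called. *Axin2* was at 4.01 to 6.42 in the 6 mesenchymal-like libraries and at −1.90 to 3.60 in the 5 epithelial ones. At an unadjusted p under 0.05, 10 were higher and 2 lower (share of all genes not given here), and the median of the list was 0.42. In the comparison of 4C11+ with melan-a, 2 of the 25 were higher and 3 lower, near the shares of all genes (8.39% and 7.52%).

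Of 10 EMT transcription factors, 5 were higher in the mesenchymal-like lines and 1 was lower (14.3% and 15.3% of all genes). *Snai1*, a repressor of *Cdh1*, was at 4.36, 4.95 and 4.42 in 4C and 5.99, 5.16 and 5.13 in 4C11− with at most 1 read in each epithelial library, and *Zeb1* was 5.56 ± 0.36 higher (adjusted p = 3.71e-07). *Twist1* (4.70 ± 0.41) and *Twist2* (7.39 ± 0.28) were also higher. *Snai2*, the factor of the neural crest, differed by −3.76 ± 0.54 (adjusted p = 2.40e-04), with 3.13 and 3.18 in melan-a and 0 reads in the 3 libraries of 4C. *Cdh1* had 2 to 19 reads in the libraries of 4C and 4C11−, the most of them in 4C11−, and 2 to 9 in the epithelial libraries, which differ in depth. Its mean was 2.15 CPM in 4C11−, 1.68 in melan-a, 0.94 in 4C11+ and 0.37 in 4C. Of 15 genes of cadherin shedding and endocytosis, *Dab2* was higher (1.02 ± 0.22) and *Psen2* (−2.82 ± 0.32), *Adam10*, the main sheddase of E- and N-cadherin (−1.11 ± 0.29, adjusted p = 0.012), and *Aph1a* (−0.63 ± 0.19) were lower.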

How the data were processed

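Total RNA-seq of 11 libraries was used. The authors trimmed the reads (Trimmomatic), mapped them to GRCm38 (STAR), counted them per gene (Rsubread) and transformed the counts with voom of limma into the log2 CPM that they deposited. The tools and build are those in the submitters' processing notes and the study's methods. The libraries also share their highest value (13.69), as quantile normalization leaves it, a step that the sources used here do not name. Read numbers and depths were recovered here from the steps of the low values, up to 40 reads, and are approximate.

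The values were used as deposited. A mean per line was fitted over all 11 libraries with limma 3.58.1 (R 4.3.3; empirical Bayes with a trend, two-sided, Benjamini-Hochberg over 14272 genes, threshold 0.05), the phenotype being the mean of 2 line means against 2, and the fit was tested on simulated data. Intervals are 95%. Where a group had 0 reads, folds were bounded at 3 reads per library. Ratios resting on 1 to 3 reads have exact Poisson intervals. Exon lengths and overlaps come from GENCODE M21, promoters from RefSeq. Other steps used Python 3.11.15.

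All *Cdh* and *Ctnn* genes are named, protocadherins when called, and of each partner list up to 5 called genes with the largest difference between phenotypes. The uncalled *Ccnd1*, *Myc* and *Znrf3* are named in addition. The members, lists and comparisons were chosen with earlier results of these data known. No sample was dropped from the fit. Alternatives covered normalization, filters, the variance model, a replicate block, a floor at 3 reads and each library left out. Those of normalization were a further quantile normalization and median centring. They could change little, because the deposited libraries already share their highest value and nearly their median, so they do not test the normalization. Leaving out 3 libraries together was chosen after seeing the data. A glial marker gene is not reported here.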

Additional observations from a re-analysis of the deposited data

Results flagged for a closer look

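The effect of the phenotype differed between the nontumorigenic pair (4C minus melan-a) and the tumorigenic pair (4C11− minus 4C11+) for 13 members by the interaction test of limma, given here as the first effect minus the second on the log2 scale. The difference was negative for *Pcdhgc3* (−7.36), *Fat4* (−6.59), *Cdh5* (−5.85), *Pcdh18* (−5.32), *Celsr2* (−4.63), *Cdh1* (−3.41), *Cdh24* (−2.58), *Ctnnbip1* (−2.43), *Ctnna1* (−1.27) and *Clstn1* (−1.23). It was positive for *Fat2* (5.94), *Clstn3* (5.61) and *Pcdhgb2* (3.74). The values of *Pcdhgc3*, *Fat4*, *Cdh5*, *Pcdh18* and *Fat2* include groups with 0 to 2 reads per library, so their size depends on the floor. The calls of *Cdh24*, *Clstn1*, *Cdh1*, *Clstn3* and *Cdh5* were lost in 15, 12, 11, 7 and 6 of the alternatives, with a highest adjusted p of 0.21, 0.148, 0.157, 0.0685 and 0.0723, and the other 8 were kept in each alternative that tested the gene.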

How the results depend on the processing

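Of 97 calls of members over the 6 comparisons, 67 were kept in every alternative that tested the gene and 30 were lost in at least 1. In 4C against melan-a, 12 instead of 22 members were called with a filter that removed genes averaging below a log2 of 1, which leaves fewer members to test. Single libraries left out gave 11 (without melan-a replicate 3) to 24. In 4C11− against 4C, where 3 members were called, the count was 5 with array weights, 5 without a mean-variance trend, 6 with values under 3 reads set to 3 reads, 8 with melan-a replicate 2, 4C replicate 1 and 4C11− replicate 1 left out together, and 1 to 5 without single libraries, 1 being reached without 4C replicate 2, 4C replicate 3 or 4C11− replicate 2. In 4C11+ against melan-a (14), it was 9, without melan-a replicate 2 or 4C11+ replicate 1, to 16, and for the interaction (13) 8, without 4C11+ replicate 1, 4C11+ replicate 2 or 4C11− replicate 2, to 12. The cause of these shifts was not tested. Between phenotypes the count of 24 was 23 to 26 without single libraries, and 16 with the filter on mean values. Directions were followed for every call and, between phenotypes, for the *Cdh* and catenin-named genes. Among these, that of *Ctnnd1* between phenotypes turned, which was not called: it was 0.14, and ranged from −0.13 without melan-a replicate 3 to 0.40 without melan-a replicate 2. With 3.50 to 7.42 M reads per library, values under about 3 reads do not show the size of a difference.

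With the replicate number as a block, 24 members were called between phenotypes, 19 from melan-a to 4C, 4 from 4C to 4C11−, 21 in 4C11+ against 4C11−, 13 in 4C11+ against melan-a and 11 for the interaction. The labels tie the numbers to no shared day or batch, so the numbers were not taken to pair the cultures. Of the 15 same-numbered pairs of libraries from different lines, 8 had residuals that correlated above 0.1 (−0.226 to 0.388). The residuals of differently numbered pairs correlated at −0.416 to 0.340. These correlations do not decide whether same-numbered cultures shared a batch, and a shared effect was not excluded.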
